A study of Mus musculus with 4 samples.

Results

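Stem-like cells of the mouse distal colon (DC) were described in single-cell RNA counts of sorted intestinal epithelium. A cell was called stem-like when the crypt base genes Lgr5, Smoc2 and Clca3b together reached at least 2 of its 10000 UMIs (unique molecular identifiers, each counting 1 RNA molecule) with at least 3 raw UMIs. Its 10 mitotic genes had to stay under 5 and its 8 S-phase genes under 8 per 10000. The rule found 298 cells among the 6776 DC cells that had 500 or more genes and no more than 20% of UMIs from mitochondrial genes. In DC 1 they were 64 of 1859 cells, a share of 3.44% (exact Clopper-Pearson 95% interval 2.66 to 4.38%, counting error only). In DC 2 they were 234 of 4917 cells, or 4.76% (4.18 to 5.39%). The whole series held 10522 cells of this quality out of 10827 barcodes.

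The series has 4 libraries, namely 2 of distal colon (DC 1 and DC 2) and 2 of a small intestinal segment that the labels call its 8th section (Si8 1 and Si8 2). Per the labels, all came from 6 to 8 weeks old RedMUC298trTg mice, a transgenic line in which mCherry reports goblet cells. Every library is labelled as goblet cells, the epithelial cells that secrete mucus, and live cells were sorted on whether mCherry was present or absent. Which gate each library holds and how many mice stand behind it are not given in the sources used here, so the spread behind the p-values may be technical. For stem-like cells of DC against Si8 it is the spread between libraries. In the other tests, which pair the classes of each library, it is how far the class difference varies from library to library. The cells below are therefore what such a sort let through, and their share is not their share in the tissue.

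Colon crypts are renewed by stem cells at their base. Wnt signals and the receptor Lgr5, which amplifies them, keep these cells dividing, and the transcription factor Ascl2 maintains the stem state. Daughter cells move up the crypt, where Notch signalling separates absorptive colonocytes, which express the repressor Hes1, from secretory cells, which depend on the factor Atoh1 and include goblet cells. BMP signals increase towards the surface, and Eph receptors with their ephrin ligands keep cells at their crypt position.

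The promoters of 4 genes are shown because the results turn on them: Clca3b supplied most of the UMIs that chose the cells, Ascl2 had the largest rise in the stem cell list outside the rule, Sox4 came with the description of these cells, and Atoh1 separated them into groups. Each is 300 bases, 5′ to 3′ on the gene's own strand, from 250 bases before to 50 after the start, from RefSeq on GRCm38.p6. Capitals mark CTTTGAT, a form of the site bound by the TCF factors of Wnt signalling, or CAGCTG, an E-box of the kind bound by Ascl and Atoh factors. Both strands were searched, and the 2 motifs do not overlap here.
Clca3b, chr3:144849253-144849552, minus strand: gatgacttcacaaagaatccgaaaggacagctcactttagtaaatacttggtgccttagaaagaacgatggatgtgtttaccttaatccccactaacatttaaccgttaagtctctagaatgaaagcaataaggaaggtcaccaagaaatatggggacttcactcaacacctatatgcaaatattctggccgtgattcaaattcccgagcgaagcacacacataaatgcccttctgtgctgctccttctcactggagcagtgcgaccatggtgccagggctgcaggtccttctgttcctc
Ascl2, chr7:142969215-142969514, minus strand: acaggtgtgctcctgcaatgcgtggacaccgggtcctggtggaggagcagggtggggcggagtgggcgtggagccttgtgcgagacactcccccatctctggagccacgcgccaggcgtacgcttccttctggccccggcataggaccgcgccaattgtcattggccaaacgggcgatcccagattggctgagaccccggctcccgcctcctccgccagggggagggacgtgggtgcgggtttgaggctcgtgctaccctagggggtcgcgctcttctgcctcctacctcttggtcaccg
Sox4, chr13:28953650-28953949, minus strand: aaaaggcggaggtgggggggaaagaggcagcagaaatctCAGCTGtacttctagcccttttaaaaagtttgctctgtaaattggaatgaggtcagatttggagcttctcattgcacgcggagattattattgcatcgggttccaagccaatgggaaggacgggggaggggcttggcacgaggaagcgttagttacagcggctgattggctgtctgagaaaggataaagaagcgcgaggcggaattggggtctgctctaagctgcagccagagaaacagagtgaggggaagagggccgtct
Atoh1, chr6:64728875-64729174, plus strand: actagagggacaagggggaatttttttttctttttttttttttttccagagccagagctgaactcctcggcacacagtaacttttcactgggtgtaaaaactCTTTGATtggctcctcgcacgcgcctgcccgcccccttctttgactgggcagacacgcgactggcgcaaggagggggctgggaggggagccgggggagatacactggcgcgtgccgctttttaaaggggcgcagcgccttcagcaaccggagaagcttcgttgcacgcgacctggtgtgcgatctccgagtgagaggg
Sox4 held 1 CAGCTG and Atoh1 held 1 CTTTGAT, and the windows of Clca3b and Ascl2 held neither. Of 32851 mouse promoters of this length, 3.73% held CTTTGAT and 16.3% held CAGCTG.

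The 3 genes that chose the cells contributed unequally. Clca3b, a chloride channel accessory gene of crypt cells, had a UMI in 98.4% and 99.6% of the stem-like cells of DC 1 and DC 2 and made up 76.8% and 78.4% of the UMIs of the 3 genes. Smoc2, a secreted matrix protein of crypt base cells, was found in 73.4% and 66.2% of them. Lgr5 was found in 25% and 11.97%, that is in 16 and 28 cells. In 25% and 31.6% of the cells Clca3b was the only one of the 3 genes with a UMI. Lgr5 stood at 16.9 and 10.5 CPM (counts scaled to a total of 1000000, here UMIs summed over a class within a library) in stem-like cells against 2.74 and 2.38 in all other cells. These values follow from the rule and are a description, and the name of the cells rests on Clca3b and Smoc2 in most of them and on Lgr5 in a minority. Olfm4, a stem cell marker of the small intestine, had no UMI in any DC class. Clca3b has close relatives on the same chromosome, and Clca3a1, Clca3a2, Clca4a and Clca4b had 2, 11, 12 and 0 UMIs in the stem-like cells of DC 1 and 8, 16, 54 and 5 in those of DC 2, against 425 and 1298 of Clca3b.

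Deeper cells passed the rule more often, and the cause was not tested. Of the non-cycling cells with a sum of at least 2 per 10000, 1 in DC 1 and 17 in DC 2 had 2 raw UMIs and so missed the limit of 3. Stem-like cells had a median of 19040.5 and 15797.5 UMIs, other DC cells 13456 and 12183. With the cells of a library ranked by UMIs and cut into 3 equal groups, 1.29%, 2.58% and 6.45% passed from the lowest to the highest group in DC 1, and 1.53%, 4.33% and 8.43% in DC 2. Mitochondrial UMIs had a median of 4.54% and 4.85% in stem-like cells and 5.28% and 5.17% in the others. Cells that passed the stem gene limits were far more frequent among cycling cells, 30.7% and 38.7%, than among the rest, 4.43% and 6.26%. The cycle limits thus set 584 cells aside, 127 and 457, and the stem-like cells are the remainder. Non-cycling here means under both limits and not out of the cycle. The 8 S-phase genes summed to 204 and 241 CPM in stem-like cells, 143 and 211 in all other cells and 338 and 493 in cycling cells. The 10 mitotic genes summed to 149 and 139 CPM in stem-like cells and 829 and 695 in all other cells. Just inside the limit, at a sum of 2 to 2.5 per 10000, 11 and 48 cells had Ascl2 at 17.8 and 8.51 CPM. Just outside it, at 1.5 to 2, 18 and 47 cells had 14.7 and 8.95 CPM. Sox4 was at 61.6 CPM just outside and 48.8 just inside in DC 1, and at 20.2 and 63.2 in DC 2. So few cells cannot tell whether a step stands at the threshold.

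Stem-like cells were compared with all other DC cells on summed counts (edgeR quasi-likelihood test with library as a block, Benjamini-Hochberg adjusted p under 0.05). Outside the 21 genes of the rule, 13.3% of 12586 tested genes were called, 630 higher (5.01%) and 1047 lower (8.32%). Genes outside the rule are other readouts of the same cells. Sox4 and Cdca7 were handed over with the description of the cells and were known to be high. Without the block, that is with libraries treated as unpaired, 74 genes remained called.

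Genes of the crypt base were higher together. In a list of stem cell genes and Wnt targets, 18 of 32 tested genes rose and 1 fell, with a median log2 fold change of 0.58 against -0.04 over all tested genes. Without the block none of the 32 was called by edgeR, while 16 were higher at an unadjusted p under 0.05, and DESeq2 with the block called 15 higher. Ascl2 was at 31.5 and 22.4 CPM in stem-like cells of DC 1 and DC 2 and at 4.89 and 4.85 CPM in other cells. Both stem-like values lay well above both others, a difference of 2.37 ± 0.22 on the log2 scale (SE, with an adjusted p of 2.8e-07). Axin2, a feedback inhibitor that Wnt signalling switches on, was at 31.5 and 32.6 against 14.2 and 12.9 CPM, a log2 fold change of 1.25 ± 0.16 (adjusted p = 1.3e-05). Cd44, an adhesion receptor and Wnt target, rose from 5.91 and 8.00 to 17.8 and 22.4 CPM.

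The other risers of that list cover several parts of crypt biology. Sox4, a transcription factor of crypt progenitors, was at 85.5 and 88.0 CPM against 24.1 and 26.2, and Cdca7, a chromatin-associated protein of proliferative cells, at 63.8 and 53.8 against 23.1 and 24.0. Sox9, a factor of the crypt base, was at 221 and 181 CPM against 143 and 121. Regulators of receptor signalling rose too, among them Rnf43, which removes Wnt receptors (log2 0.54 ± 0.16, adjusted p = 0.034), the EGF receptor inhibitor Lrig1 (0.59 ± 0.10) and the BMP co-receptor Rgmb (0.90 ± 0.16). Fzd7, a Wnt receptor, Ccnd1, a G1 cyclin, Cdk6, Prom1, Soat1, Hopx, Zfp703, Aqp4 and Igfbp4 were the remaining genes that rose. Tcf7l2, the main TCF factor of the gut, was the single gene that fell, at 72.6 and 56.1 CPM against 98.4 and 78.2. Limiting the other cells to the depth range of the stem-like cells left 16 of the 32 higher, and Aqp4, Rnf43 and Tcf7l2 lost their calls there (adjusted p of 0.062, 0.061 and 0.099). Without DC 1, 15 of the list rose, and without DC 2, 13.

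**Figure D1:**
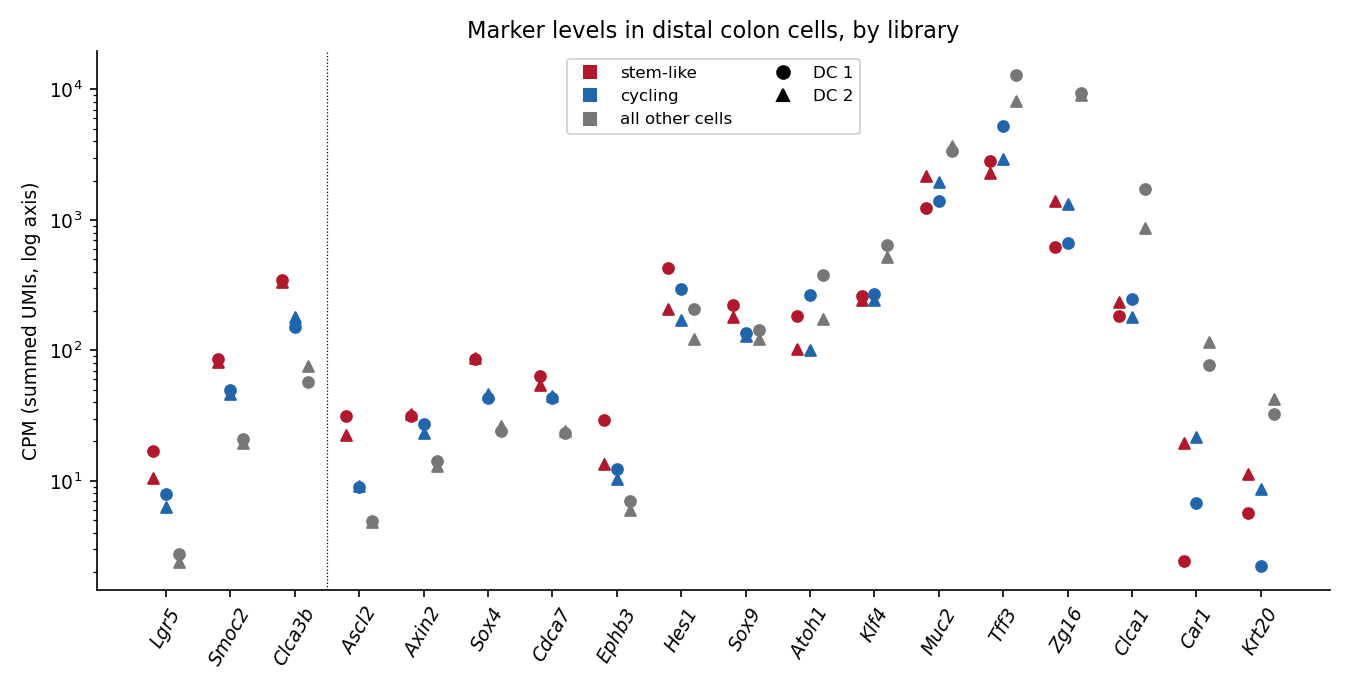
CPM on a log axis for 18 genes in DC 1 (circles) and DC 2 (triangles), for stem-like (red), cycling (blue) and all other DC cells (grey). The first 3 genes chose the cells; Ascl2, Sox4 and Ephb3 are highest in stem-like cells of both libraries, while Tff3, Zg16, Clca1, Car1 and Krt20 are highest in the other cells.

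Among genes at 50 CPM or more, the largest rises were mostly of genes outside the lists. Trf, the iron carrier transferrin, was at 100 and 69.4 CPM in stem-like cells and at 16.9 and 19.6 in others, a log2 fold change of 2.11 ± 0.16 (adjusted p = 3.8e-08). Cttnbp2, a cortactin-binding protein (1.95 ± 0.18), Nxpe2 (1.87 ± 0.14), the interferon-induced membrane protein Ifitm3 (1.84 ± 0.11), Wfdc18 (1.79 ± 0.15), the fucosyltransferase Fut9 (1.78 ± 0.13), the cell cycle regulator Rgcc (1.74 ± 0.11), Nxpe4 (1.62 ± 0.14) and the potassium channel Kcnq1 (1.51 ± 0.16) followed, with Sox4, among the 10 largest rises at that level. In each of these genes both stem-like sums lay above both sums of other cells.

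The translation machinery was higher as a group. Of 77 tested cytosolic ribosomal protein genes, 74 rose and none fell, with a median log2 fold change of 0.41 and a range of 0.11 to 0.61. At an unadjusted p under 0.05 none was lower either, and DESeq2 called 75 higher and none lower. The 3 that were not called are Rpl22l1, Rpl7l1 and Rps27l, which are variants of ribosomal proteins. Without the block, 21 were higher at an unadjusted p under 0.05 and none after adjustment. Rps19 was at 6995 and 7014 CPM against 4246 and 4773. Of 20 ribosome biogenesis genes 9 rose, with Npm1, a nucleolar chaperone, at 1139 and 973 CPM against 643 and 625, and Ncl, nucleolin, at 442 and 417 against 254 and 275.

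Genes of differentiated cells were lower. Of 22 goblet cell products, 19 fell and 1 (Tmed6, a vesicle cargo protein at under 5 CPM) rose. Zg16, a lectin of the mucus layer, fell from 9412 and 9015 CPM in other cells to 623 and 1398, the largest fall at 50 CPM or more (log2 -3.32 ± 0.19, adjusted p = 7.7e-10). Tff3, a trefoil peptide that goblet cells release, was at 2824 and 2301 CPM against 12840 and 8120. Muc2, the gel-forming mucin itself, was at 1229 and 2163 against 3348 and 3675. Clca1 and Fcgbp, further mucus components, fell by 2.56 and 2.25 on the log2 scale.

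Surface colonocyte genes fell in 17 of 25 cases and rose in 1, the membrane mucin Muc3 (1233 and 1263 against 604 and 1016 CPM). Car1, a carbonic anhydrase of mature colonocytes, was at 2.42 and 19.6 CPM against 77.5 and 116. Krt20, a keratin of the upper crypt, was at 5.65 and 11.2 against 32.3 and 42.3. Saa1, an acute phase protein, was at 12.9 and 60.5 against 271 and 216, and its call was lost when the other cells were limited to the depth of the stem-like cells (adjusted p = 0.064). Spink1, a trypsin inhibitor, Atp12a, a proton pump, and Fhl1 were the other members of the 10 largest falls outside the lists.

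Brakes on the cell cycle were also lower than in all other DC cells. Of 16 cell cycle inhibitors and exit genes 9 fell and none rose. None rose at an unadjusted p under 0.05 or by DESeq2 either, which called 6 lower. Against cycling cells alone 2 of the 16 were lower, 1 was higher and 13 did not pass. The list summed to 1873 and 1628 CPM in stem-like and to 1776 and 1612 in cycling cells. Cdkn1a, the inhibitor p21, was at 41.2 and 52.8 CPM against 219 and 185 in other cells, a log2 fold change of -2.05 ± 0.12 (adjusted p = 1.2e-09). Klf4, a factor of cell cycle exit and goblet maturation, was at 262 and 245 against 636 and 520. Prc1, a mitotic spindle gene outside the rule, was at 5.65 and 8.16 CPM against 51.2 and 49.4, which the limits on cycling cells fix. Genes that respond to cell handling moved with these groups. Of 17 dissociation stress genes 9 were lower in stem-like cells, such as Fos (2990 and 1861 against 4138 and 2437 CPM), and 2, the heat shock genes Hspa1a and Hspa1b, were higher, with a median log2 fold change of -0.35. The list summed to 11900 and 9692 CPM against 15260 and 11730, and its part in the lower levels of other genes was not tested.

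**Figure D2:**
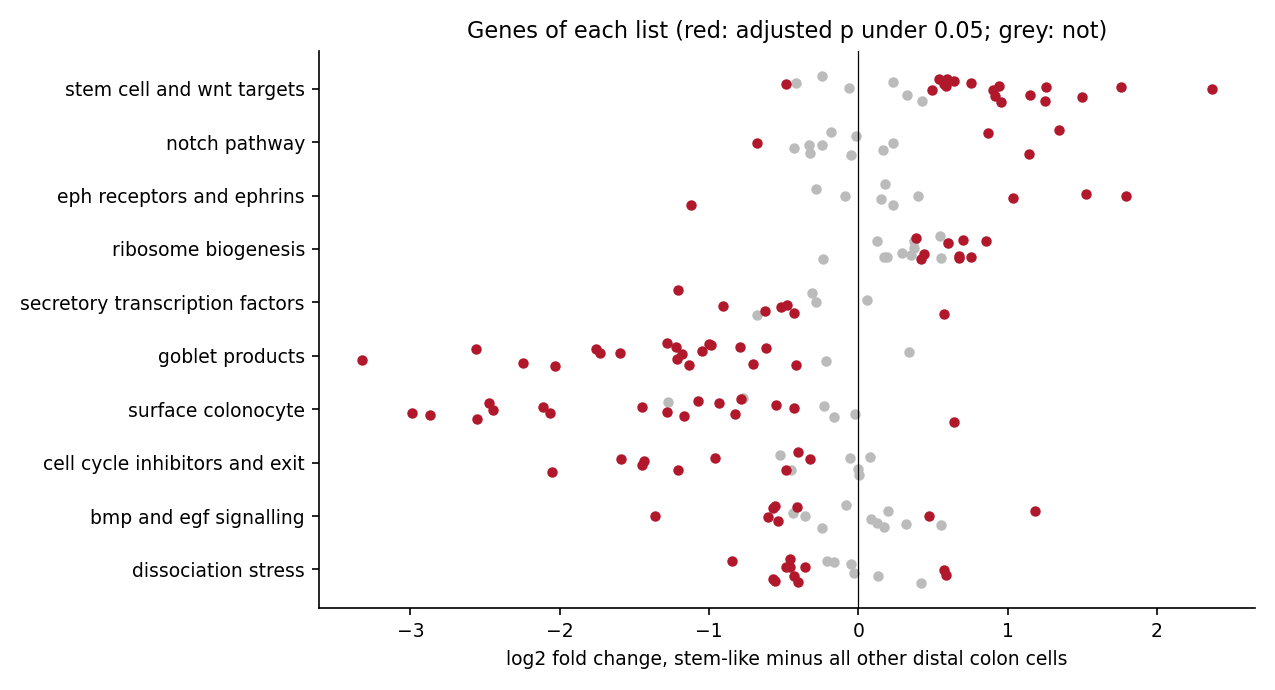
Log2 fold change of stem-like minus all other DC cells for single genes (points) of 10 lists, at 5 CPM or more in the higher class; red points pass an adjusted p of 0.05 and grey points do not. Red points of the stem cell list lie mostly right of 0 and those of goblet products and surface colonocyte genes mostly left of it.

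Fate regulators divided. Of 14 secretory transcription factors 6 fell and 1, Sox9, rose. Atoh1 was at 185 and 103 CPM in stem-like cells against 377 and 172, a log2 fold change of -0.90 ± 0.12 (adjusted p = 3.2e-05). Spdef (-0.62 ± 0.11), Foxa3 (-0.43 ± 0.10), Creb3l4 (-0.48 ± 0.10) and Xbp1 (-0.52 ± 0.09), which act later in secretory differentiation, and Klf4 also fell. Against cycling cells alone none of 12 tested secretory factors was lower, 1 was higher and 11 did not pass. The 16 listed factors summed to 1669 and 1283 CPM in stem-like and to 1692 and 1230 in cycling cells. In the Notch pathway 3 of 16 genes rose and 1 fell. Hes1, the Notch target, was at 428 and 206 CPM against 206 and 123. In DC 2 it reached only the level that other cells had in DC 1, so the rise shows within each library (log2 0.87 ± 0.08, adjusted p = 5.5e-07). The receptor Notch1 (1.14 ± 0.23) and Dtx4 (1.34 ± 0.27), a ubiquitin ligase of the pathway, rose, and the ligand Dll4 fell (-0.68 ± 0.17).

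Some genes of position and growth signalling differed. In both lists the called share lay above the 13.3% of all tested genes, although most members did not pass. Among 11 Eph receptors and ephrins 7 did not pass. The receptors Ephb3 (29.1 and 13.5 against 6.96 and 5.97 CPM) and Epha4 (21.0 and 21.7 against 7.55 and 11.8) and the ligand Efna4 (16.1 and 15.8 against 3.68 and 4.99) rose. The ligand Efnb2, which surface cells express, fell from 31.7 and 27.3 to 12.1 and 13.8 CPM. Of 21 BMP and EGF genes 6 fell, 2 rose and 13 did not pass, with a median log2 fold change of -0.08 against -0.04 over all genes. The BMP target Id3 was at 96.8 and 92.3 CPM against 230 and 244, and Id1 at 224 and 252 against 359 and 340. Etv4, a target of receptor tyrosine kinase signals, was at 26.6 and 21.4 against 7.51 and 11.8 CPM. The tight junction gene Cldn2, found in crypts, was at 125 and 128 CPM against 78.4 and 69.9.

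Some of the genes above were followed over the number of stem gene UMIs per cell (6 groups of non-cycling DC cells, from 0 UMIs to 9 or more, a description since cells with more UMIs are also deeper). Ascl2 went from 2.31 to 42.7 CPM in DC 1 and from 1.74 to 33.0 in DC 2 between the first and the last group. Sox4 went from 9.69 to 138 and from 11.04 to 113 CPM. Atoh1 went from 441 to 148 and from 223 to 91.3 CPM, and Zg16 from 16250 to 814 and from 16250 to 1039. Between these ends the steps were not even. Ascl2 dipped from 15.3 to 13.6 CPM in DC 2 and Sox4 from 63.0 to 49.9 in DC 1 from the fourth to the fifth group. Zg16 was higher in the last group than in the fifth, where it was at 521 and 653 CPM, and so was Tff3 (2712 and 2069 against 2544 and 1656). Median UMIs per cell went from 12103 to 24477 and from 10705 to 19655 over the same groups.

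**Figure D3:**
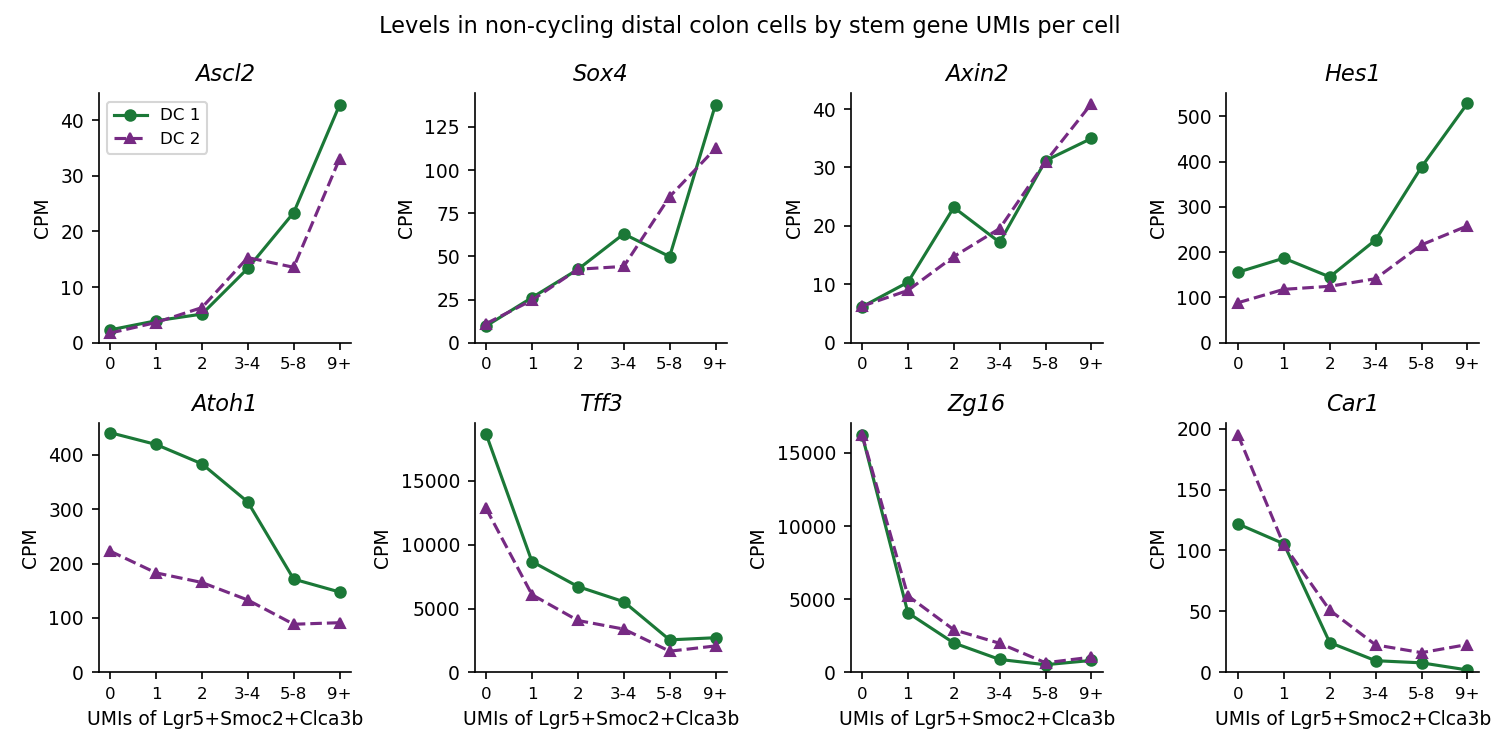
CPM of 8 genes in non-cycling DC cells grouped by the summed raw UMIs of Lgr5, Smoc2 and Clca3b (horizontal axis), for DC 1 (solid, circles) and DC 2 (dashed, triangles); vertical axes start at 0. Ascl2, Sox4, Axin2 and Hes1 are highest at 9 or more UMIs and Atoh1, Tff3, Zg16 and Car1 are highest at 0.

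To compare shares of cells with a UMI, every cell was thinned to 8000 UMIs, which left out 2 and 6 stem-like, 13 and 61 cycling and 218 and 606 other cells. Ascl2 was then found in 19.4% and 14.5% of stem-like cells, 4.99% and 5.71% of cycling cells and 2.79% and 2.94% of other cells. Without thinning the stem-like shares were 32.8% and 25.6%. The 180 and 469 cells with most colonocyte marker RNA had Ascl2 in 2 of 80 (2.5%) and 9 of 325 (2.77%) after thinning. Thinning left out 100 and 144 of these shallower cells (median depths of 6756.5 and 10064 UMIs before thinning). Atoh1 was found in 81.2% and 52.6% of them, Muc2 in 97.5% and 97.2% and Reg4 in 86.25% and 93.2%. In other cells these shares were 83.6% and 61.8%, 96.6% and 98.6%, and 94.0% and 96.2%. Secretory genes were thus found in most of these cells, nearly as often as in other cells. They therefore cannot serve as colonocytes that should lack Ascl2. The Ascl2 share in other cells was near theirs, and the share in stem-like cells was above both in both libraries. Sox4 was found in 38.7% and 44.7% of thinned stem-like cells and in 12.5% and 7.08% of the cells with most colonocyte marker RNA.

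Stem-like cells with an Lgr5 UMI, 16 in DC 1 and 28 in DC 2, had Ascl2 at 52.2 and 39.6 CPM, against 23.5 and 19.8 CPM in those without. Their Sox4 level was 130 and 102 CPM against 68.2 and 85.8, and their Cd44 level 34.8 and 45.3 against 11.2 and 18.9. Tff3 was lower, at 2103 and 1857 against 3103 and 2371 CPM. The same ordering in both libraries is a description, since Lgr5 is part of the rule.

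Markers of other cell types were scarce in the stem-like cells. The 13 immune markers summed to 4.84 and 5.36 CPM, the 12 enteroendocrine markers to 1.61 and 7.91, the 11 tuft markers to 2.42 and 5.10 and the 10 stromal markers to 4.04 and 4.59. In other cells the immune sum was 2.03 and 52.5 and the enteroendocrine sum 6.46 and 170 CPM, so these cell types lay mostly in DC 2. The tuft sum of other cells was 2.03 and 3.14 CPM and their stromal sum 2.62 and 5.49. Tuft markers were thus scarce in both classes and not lower in the stem-like cells. Paneth markers summed to 805 and 771 CPM, of which Nupr1, a stress gene, gave 798 and 751, and Lyz1 was at 0.81 and 1.53 CPM. Removing the cells with the highest doublet scores took out 1 and 7 stem-like cells.

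Since cycling DC cells, 414 and 1182 in number, carried the stem genes more often than the rest, they were compared with the stem-like cells directly. Outside the rule 8.53% of 10997 genes were called, 369 higher in stem-like cells (3.36%) and 569 lower (5.17%). With library totals in place of TMM scaling the split was 206 higher and 779 lower, and without the block 19 and 305. Cell cycle genes such as Plk1, Tpx2, Kif11 and Ccna2 head the lower genes because the rule divides the classes by the cycle. In the stem cell list 13 of 31 genes were higher and none was lower, also none at an unadjusted p under 0.05, and DESeq2 called 6 higher. The count was 5 without DC 1, 6 without DC 2 and 3 without the block. The median of the list was 0.48, against 0.05 over all genes. Every stem-like cell had passed the stem gene limits, but only 30.7% and 38.7% of cycling cells had. The 3 stem genes of the rule summed to 446 and 422 CPM in stem-like and 208 and 232 in cycling cells. The choice of cells thus favours higher stem cell genes on the stem-like side. Cycling cells that pass the stem gene limits were not compared separately.

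Ascl2 was at 31.5 and 22.4 CPM in stem-like against 8.96 and 9.19 CPM in cycling cells (log2 1.59 ± 0.21, adjusted p = 1.2e-04). Sox4 was at 85.5 and 88.0 against 43.0 and 46.1 CPM (1.07 ± 0.11). Ccnd2, a G1 cyclin, was at 512 and 480 CPM against 347 and 299. Trf, Cttnbp2, Nxpe2, Nxpe4, Ifitm3, Fut9, the channel subunit Kcne3, Ttc3 and the isocitrate dehydrogenase Idh1 were the other large rises, at log2 fold changes of 0.86 to 1.04. Without DC 1, Cttnbp2 lost its call (0.74, adjusted p = 0.083). Axin2 (0.50 ± 0.15, adjusted p = 0.045) and Cdca7 (0.48 ± 0.14, 0.040) were near the threshold, and with RLE size factors their adjusted p was 0.053 and 0.052.

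Of the ribosomal protein genes 73 of 77 were higher in stem-like than in cycling cells, and none was lower by edgeR, by DESeq2 or at an unadjusted p under 0.05. Their median log2 fold change was 0.33, with 25 called without DC 1 and 57 with library totals. Ribosome biogenesis genes were less set apart, with 2 of 20 higher and 18 not passing. They summed to 2809 and 2599 CPM in stem-like and 2569 and 2603 in cycling cells. Of 22 goblet products 1 was higher and 2 were lower, with Tff3 at 2824 and 2301 against 5246 and 2950 CPM. Of the surface colonocyte genes 1 of 23, Muc3, was higher.

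Within the stem-like cells, goblet products were unevenly spread. Their 22 genes summed to a median of 287 and 352 UMIs per 10000 in stem-like cells, against 838 and 706 in other cells. In DC 1 20 stem-like cells (31.2%) and in DC 2 58 (24.8%) had under 100 per 10000. Among other cells 4.62% and 9.84% were that low, and among cycling cells 9.18% and 19.5%. The histogram of single cells shows a low and a high group with few cells between them.

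**Figure D4:**
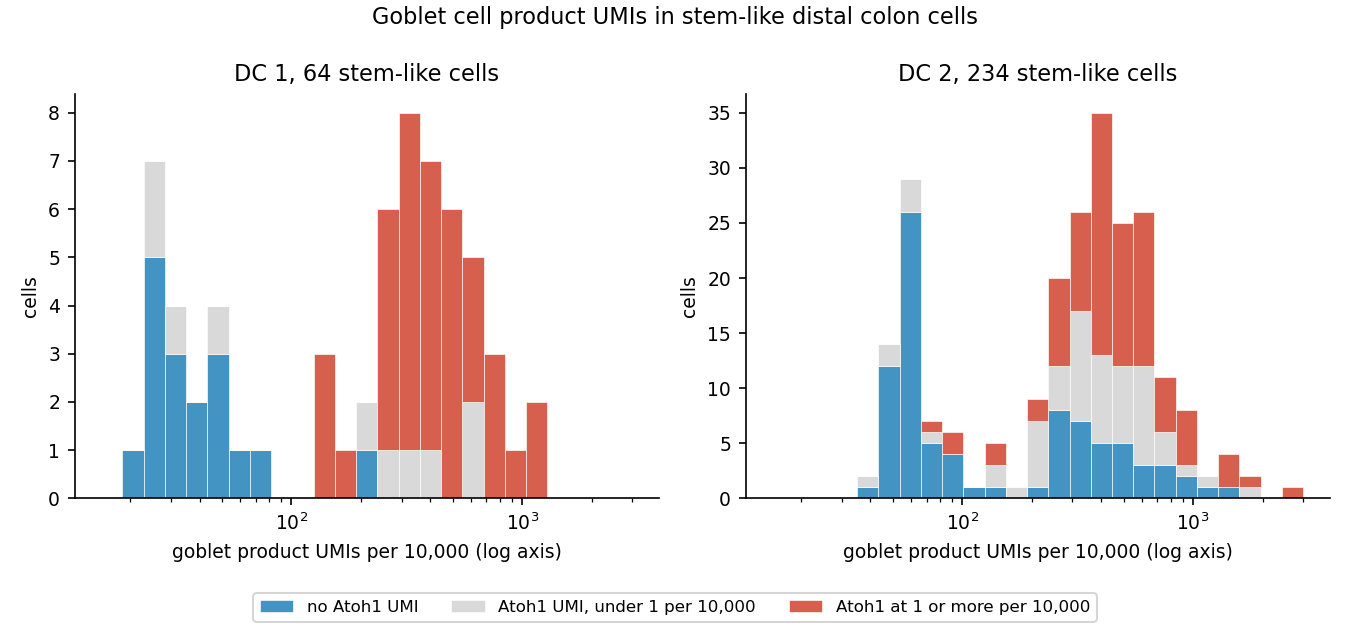
Number of stem-like cells by goblet product UMIs per 10000 (log axis) in DC 1 (64 cells) and DC 2 (234 cells), stacked by Atoh1. Cells without an Atoh1 UMI (blue) make up most of the group under 100, where cells with Atoh1 at 1 or more per 10000 (red) number 0 in DC 1 and 3 in DC 2.

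The stem-like cells were therefore divided by Atoh1, the factor that commits cells to the secretory lineage. In DC 1 37 cells had at least 1 Atoh1 UMI per 10000 and 17 had none, with 10 between. In DC 2 88 had it and 86 had none, with 60 between. A cell with no Atoh1 UMI may still express it, since median depths were 21758 and 12951 UMIs in DC 1 with and without Atoh1, and 15377.5 and 14687 in DC 2. Of the cells without an Atoh1 UMI 16 of 17 and 48 of 86 had under 100 goblet product UMIs per 10000.

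Apart from Atoh1 and the genes of the rule, 1.05% of 8937 genes differed between these groups, 70 higher with Atoh1 (0.783%) and 24 lower (0.269%). Without the block none was called, with 628 at an unadjusted p under 0.05, and DESeq2 with the block called 60. Of 21 goblet products 13 were higher with Atoh1, with a median log2 fold change of 1.59 for the list, and DESeq2 called 4. With every cell thinned to 2000 UMIs none of 18 tested goblet products was called and 11 were higher at an unadjusted p under 0.05, with a median of 1.46. Without the block none was called and 18 were higher at that unadjusted level. Reg4, a lectin of deep crypt secretory cells, was at 3781 and 3543 CPM with Atoh1 and at 114 and 1244 without (log2 2.54 ± 0.47, adjusted p = 0.014). Spink4, a protease inhibitor of goblet cells, was at 13150 and 12290 against 412 and 5365 CPM. Muc2 was at 1615 and 2647 against 143 and 1236. Cma1, a chymase, had the largest rise, from 0 and 4.50 to 61.3 and 46.4 CPM. Of the factors, Spdef (90.1 and 90.8 against 16.8 and 41.3 CPM), Creb3l4 and Xbp1 rose.

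In the other direction 24 genes were higher without Atoh1. Of 22 surface colonocyte genes 1 was among them, Gsdmc4 (67.3 and 165 against 37.5 and 66.2 CPM with Atoh1), 1 was higher with Atoh1, Guca2b (242 and 255 against 25.2 and 107 CPM), and 20 did not pass. Outside that list, Ccl20, a chemokine of enterocytes, was at 12.6 and 90.8 CPM without against 5.00 and 17.8 with Atoh1 (log2 -2.29 ± 0.28, adjusted p = 9.0e-04). Dmbt1 (75.7 and 112 against 18.8 and 41.0 CPM), the monoamine oxidase Maoa, Tm4sf20, the monocarboxylate transporter Slc5a8 and Lgals3 were higher too. Of 18 BMP and EGF genes 2 were higher without Atoh1, the BMP targets Id1 (286 and 344 against 173 and 158 CPM) and Id3 (139 and 125 against 57.6 and 70.4), and 16 did not pass.

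Between these groups 1.05% of all tested genes were called, so the lack of a call among 24 stem cell genes says little about the list. Its median log2 fold change was -0.17, against -0.0009 over all genes. The 40 genes of the list, 2 of the rule included, summed to 2045 and 1813 CPM with Atoh1 and to 2335 and 2034 without. Of 24 tested, none was called by edgeR or DESeq2, and at an unadjusted p under 0.05 edgeR had 1 higher and 3 lower with Atoh1. Ascl2 was at 27.5 and 18.4 CPM with Atoh1 and at 37.9 and 28.5 without (log2 -0.51 ± 0.34, adjusted p = 0.70). Sox4 was at 63.8 and 88.1 against 147 and 93.1 CPM, and Hes1 at 379 and 157 against 652 and 203 (-0.55 ± 0.18, adjusted p = 0.24).

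The same rule found 223 cells in the small intestine, 55 of 1509 (3.64%) in Si8 1 and 168 of 2237 (7.51%) in Si8 2. In Si8 1 and Si8 2 Clca3b was the only one of the 3 genes with a UMI in 50.9% and 32.1% of them. Smoc2 was found in 49.1% and 67.3% and Lgr5 in 9.09% and 20.8%. The stem cell list, 2 rule genes included, summed to 1608 and 1888 CPM against 1307 and 1308 in other Si8 cells. In DC the sums were 2119 and 1925 against 1626 and 1393. Si8 1 thus had a lower share of cells with Smoc2 or Lgr5 than DC, and the part of this in the tissue differences was not tested. Between colon and small intestinal stem-like cells 15.3% of 9765 genes differed outside the rule, 805 higher in DC (8.24%) and 693 higher in Si8 (7.1%). Library totals in place of TMM moved the median log2 fold change from 0.0011 to 0.17 and the split to 1048 and 504. Levels of Clca3b, Smoc2 and Lgr5 themselves (343 and 331, 86.4 and 80.8, 16.9 and 10.5 CPM in DC against 310 and 348, 52.4 and 59.3, 7.35 and 18.5 in Si8) are set by the rule.

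Regional identity was plain in these cells. Hoxb13, a posterior homeobox factor, was at 420 and 422 CPM in DC. With 0 UMIs in Si8 it was at least 760-fold higher, taking 3 UMIs over all Si8 stem-like cells as the floor, and at least 153-fold without Si8 2, the deeper library. Of 14 colon regional factors 9 were higher in DC and 4 lower, among them Hoxa9 (34.7 and 43.9 CPM) and Hoxd13 (46.8 and 31.6 CPM), both without a UMI in Si8. The anterior Hoxb6, Hoxb7 and Hoxb8 and the intestinal factor Cdx2 (18.6 and 23.0 against 107 and 120 CPM) were higher in Si8. Of 10 small intestinal factors 4 were higher in Si8, such as Osr2, at 84.5 and 70.9 CPM against no UMI, and Gata5, at 33.1 and 21.5 against no UMI. The other cells of the same libraries had Cdx2 at 11.97 and 20.2 CPM in DC and at 87.1 and 112 in Si8, so its regional difference was seen outside the stem-like cells too.

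Stem cell genes divided between the tissues, with 6 of 27 higher in DC and 4 in Si8. Sox9 (221 and 181 against 100 and 79.5 CPM), Lrig1 (111 and 77.0 against 23.0 and 30.1), Aqp4 (70.2 and 119 against 14.7 and 22.2), Rgmb, Soat1 and Sox4 (85.5 and 88.0 against 30.3 and 47.5) were higher in DC. Igfbp4, an IGF-binding protein, was at 5.65 and 2.55 CPM against 34.0 and 38.0 in Si8, and Prom1, Ccnd1 and the Wnt receptor Fzd5 were higher there as well. Ascl2 was at 31.5 and 22.4 CPM against 2.76 and 12.05 and did not pass (log2 1.32 ± 0.42, adjusted p = 0.056). Without DC 2, Sox4 lost its call (adjusted p = 0.077), and Rgmb lost it without DC 1 (0.076), without DC 2 (0.15) and without Si8 2 (0.11).

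**Figure D5:**
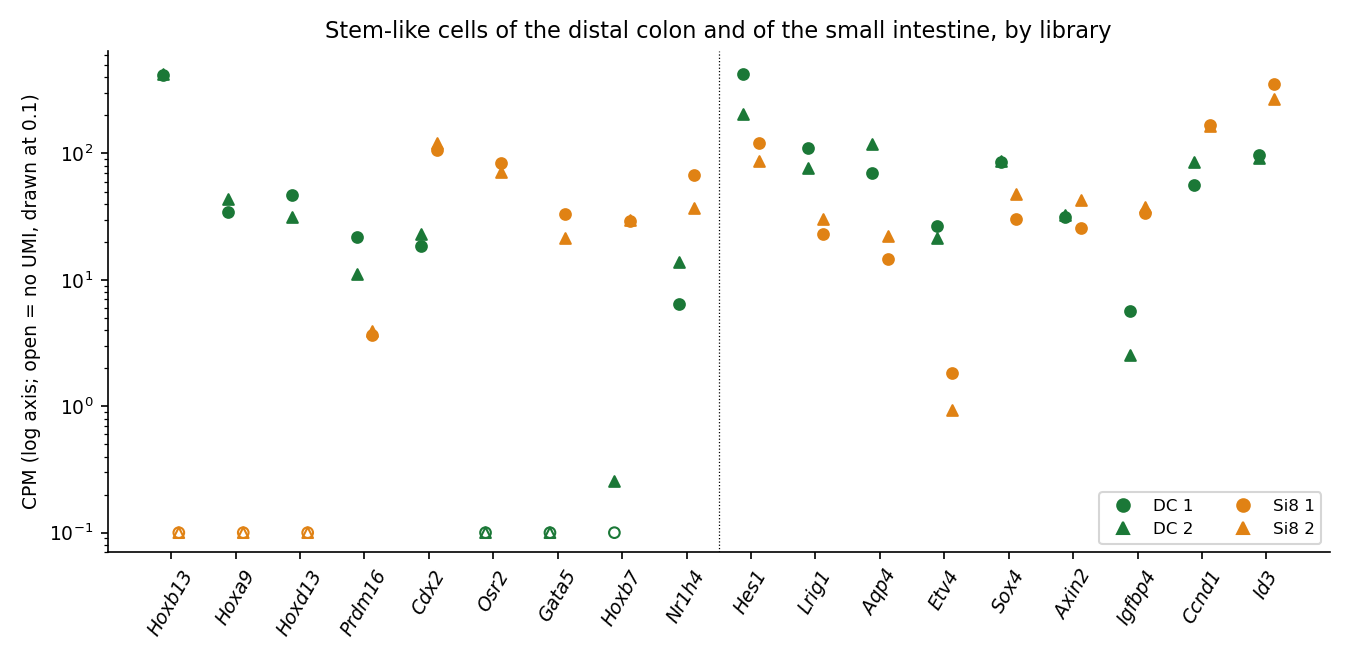
CPM (log axis) of 18 genes in stem-like cells of DC 1 and DC 2 (green) and Si8 1 and Si8 2 (orange); open symbols at 0.1 mark libraries with no UMI. Left of the dotted line are regional factors, with Hoxb13, Hoxa9 and Hoxd13 seen in DC alone and Osr2 and Gata5 in Si8 alone, and right of it are signalling and stem cell genes.

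The signed difference of stem-like minus other cells was compared between DC and Si8 in an interaction test. Outside the rule 0.93% of 12586 genes passed. In 59 (0.469%) the signed difference was higher in DC, through a stronger rise or a weaker fall, and in 58 (0.461%) it was lower there. Saa1, for instance, is one of the 58 and fell in DC, so the sign does not tell in which tissue a difference was larger. In the stem cell list 1 of 32 passed, Zfp703, which was higher in stem-like cells of DC (29.1 and 26.3 against 13.5 and 14.0 CPM in other cells) and lower in those of Si8 (32.2 and 45.2 against 52.2 and 48.7).

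Between the stem-like cells of the tissues 15.3% of all tested genes were called. The called share was lower in the Notch list, where it rests on 1 gene, and higher in the BMP and EGF list. Of 13 Notch pathway genes 1, Hes1, was higher in DC and 12 did not pass. Of 19 BMP and EGF genes 5 were higher in DC, 2 were lower and 12 did not pass. Hes1 was at 428 and 206 CPM in DC against 121 and 86.9 in Si8, and its call was lost without DC 1 (adjusted p = 0.082). Etv4 was at 26.6 and 21.4 against 1.84 and 0.93 CPM (log2 4.16 ± 0.48, adjusted p = 9.7e-05). Id3 was lower in DC, at 96.8 and 92.3 against 354 and 271 CPM. Among genes without a list, Nxpe2 (194 and 176 CPM), Fut9 (113 and 83.4), Nov (61.3 and 117) and Nxpe4 (68.6 and 69.9) lacked UMIs in the Si8 cells and so were at least 326-, 163-, 187- and 125-fold higher in DC. Without Si8 2 these bounds are 65.55-, 32.8-, 37.6- and 25.25-fold, and that of Nov is 110.5-fold without DC 2. Trf had 396 UMIs in DC and 1 in Si8 (ratio 415, interval 74.0 to 16430, counting error only).

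Goblet products were mostly lower in DC than in Si8 stem-like cells. The list of 22 had 14 genes at a lower level in DC and 4 at a higher one, with a median log2 fold change of -1.27. Tff3 was at 2824 and 2301 CPM against 39960 and 19430, and Zg16 at 623 and 1398 against 18610 and 8596. The 4 that were higher in DC are Mptx1, a pentraxin of goblet cells (9039 and 10140 against 4.59 and 3.94 CPM), Sycn, Sval1 and the channel Best2. The difference was not particular to the stem-like cells. In all other cells the list summed to 88180 and 72040 CPM in DC against 222600 and 158000 in Si8. In the interaction test 3 of the 22 genes were higher in DC, 4 were lower and 15 did not pass.

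The genes higher in Si8 were led by Paneth cell products. Defa24, an antimicrobial peptide of Paneth cells, was at 3271 and 20500 CPM in Si8 and had no UMI in DC, at least 29290-fold higher with 3 UMIs over all DC stem-like cells as the floor. The bound is 5626-fold without Si8 2 and 7034-fold without DC 2. Defa20, Defa21, Defa22, AY761184 and Defa17, which are near-identical copies whose reads counting can split, and the protease Mmp7 had no UMI in DC either. Reg3b and Reg3g, lectins against bacteria, were at 13050 and 3190 and at 9103 and 3786 CPM. Paneth markers summed to 5830 and 33170 CPM in Si8 stem-like cells and to 21180 and 34470 in other Si8 cells, with 2 and 12 of the stem-like cells at 500 or more per 10000. Without those cells 1593 genes differed, 863 higher in DC and 730 in Si8. The part of free Paneth RNA in these values was not tested.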

How the data were processed

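Sorted cells of 4 libraries (10x Genomics 3' v2, per the labels' protocols) were analysed from the deposited counts, which are raw UMI counts per gene and barcode with no normalization. The authors made them with Cell Ranger 2.1.1 on mm10, per the submitters' processing notes; the version of its annotation is not given. Of 28694 gene identifiers 28418 (99%) were found in GENCODE M21 (GRCm38). Whole libraries held 26075303 to 66880457 UMIs, and sums over stem-like cells 1088599 to 4316624, so a count of 0 over DC stem-like cells allows up to 0.581 CPM. Libraries shared 1 to 16 barcodes pairwise.

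UMIs were summed per library and class and tested with edgeR 4.0.16 (glmQLFit and glmQLFTest, TMM, filterByExpr with min.count at 10, Benjamini-Hochberg adjusted p under 0.05) in R 4.3.3. The comparisons within DC and the interaction carry the library as a block, because both classes come from the same library. Si8 sums share the estimate of spread, except in the Atoh1 comparison, which uses DC alone. Cycling cells are those past the limits on mitotic or S-phase genes. The script was tested on simulated counts. Doublet scores came from Scrublet in scanpy 1.11.5; its own threshold marked 14, 0, 3 and 3 cells, so doublets were left in and removal at an expected 0.8% per 1000 cells was an alternative. Named genes are the 10 largest called changes per direction at 50 CPM or more with the same direction in both libraries (between tissues, without overlap), the most abundant and most changed called gene of each list, and every called stem cell, secretory factor or Notch gene. A few genes that meet the rule are not reported here. The cells and the 22 gene lists (387 of 389 symbols were in the files) were chosen with earlier results of these data known. Alternatives covered scaling, filters, DESeq2 1.42.0, the limits of the rule, depth, doublets, pairing and each library left out.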

Additional observations from a re-analysis of the deposited data

Results flagged for a closer look

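The distance between stem-like and all other cells was tested for a difference between the tissues (interaction term, edgeR quasi-likelihood with library as a block, Benjamini-Hochberg adjusted). Outside the rule 117 genes passed, as counted above. With library totals the split was 27 and 121 and the median over all genes moved from -0.04 to -0.22. Without the block none passed, with 425 at an unadjusted p under 0.05, and DESeq2 with the block called 88. Log2 values below are the DC difference less the Si8 difference. The genes named are those of the naming rule, with differences that did not overlap between the tissues. Here the limit of 50 CPM applied to the highest single sum of any class and library.

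Tm4sf5, a tetraspanin-like membrane protein, had the largest positive value among these at 2.71. It was at 8.07 and 4.59 CPM in DC stem-like against 1.49 and 1.72 in other DC cells, and at 189 and 127 against 266 and 254 in Si8. The membrane mucin Muc3a followed at 1.93, with 24.2 and 41.6 against 8.96 and 21.7 CPM in DC and 65.2 and 49.1 against 118 and 72.5 in Si8. Zfp703, a transcriptional co-repressor whose levels are given above, was at 1.43. Tle1, a Groucho co-repressor, was at 1.34, with 31.5 and 26.3 against 17.8 and 18.9 CPM in DC and 33.1 and 26.6 against 51.6 and 38.4 in Si8. Ifi27l2b was at 1.65, Ttr at 1.34, Gsta4 at 1.26, B3gnt7 at 1.21, Duox2 at 1.16 and Fabp2, a fatty acid carrier of enterocytes, at 1.12.

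The 10 largest negative values among these included 3 MHC class II genes, whose products present antigen. H2-Aa was at -4.75, H2-Eb1 at -4.73 and H2-Ab1 at -3.13. In Si8 H2-Ab1 stood at 330 and 285 CPM in stem-like against 204 and 201 in other cells, and in DC at 1.61 and 4.34 against 6.34 and 30.9. Without DC 2 their adjusted p were 0.99, 0.77 and 0.11, and the immune marker sum of other DC cells was 2.03 CPM in DC 1 and 52.5 in DC 2; the part of immune cells was not tested. Chgb, a granin of enteroendocrine cells, was at -7.64 and rested on Si8 2 (97.1 CPM in its stem-like cells, 0 in Si8 1), turning to 2.47 without that library. Gbp2 was at -3.87, Saa1 at -2.38, Lyz1 at -2.11, Sycn at -1.80, Fbxo32 at -1.77 and Spink1 at -1.58. With the other cells limited to the depth of the stem-like cells Saa1 and Spink1 were at -1.02 and -0.89, with an adjusted p of 0.24 each.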

How the results depend on the processing

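Counts of called genes depended on the pairing and on how many UMIs were used. Against all other DC cells (1677 genes) the call count was 74 with no replicate block, 875 with DESeq2, 506 with every cell thinned to 2000 UMIs, 1033 with other cells limited to the depth of the stem-like ones, 274 with Lgr5 and Smoc2 only (8 and 28 DC cells), and 4552 with no limits on the cycle, where 178 of 1543 shared genes changed direction. Stem-like cells with an Lgr5 UMI, chosen as an alternative after seeing the data, gave 1058. Leaving out a library in turn gave 893 to 2333. Against cycling cells (938) the count was 324 with no replicate block, 408 with DESeq2, 185 thinned and 167 with Lgr5 and Smoc2 only, and 506 to 1693 with a library left out (506 without DC 1, 515 without DC 2, 1614 without Si8 1 and 1693 without Si8 2). Between the tissues (1498) it was 956 with DESeq2, 809 at a stem sum of at least 3, 142 with Lgr5 and Smoc2 only, 259 thinned, 2754 with no cycle limits and 847 to 1911 with a library left out. For the difference between tissues (117) it was 264 with no count filter, 205 at a stem sum of at least 3, 19 with Lgr5 and Smoc2 only, 26 thinned, 41 with depth limited, 0 with no replicate block and 134 to 361 with a library left out. For the Atoh1 comparison (94) it was 198 with no count filter, 60 with DESeq2, 51 with Lgr5 and Smoc2 only, 1 thinned and 0 with no replicate block, and leaving out a library leaves no residual degrees of freedom, so it has no value. The cause was not tested where it is not the smaller number of cells, UMIs or genes itself.

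The replicate numbers of DC and Si8 do not pair the libraries by any label, and over 7511 genes the deviations of same-numbered stem-like sums correlated at 0.083; with that replicate block 2109 genes differed between the tissues. The mean share of stem-like DC cells (4.10%) was 2.64% at a stem sum of at least 3, 2.93% with at least 5 raw UMIs, 0.50% with Lgr5 and Smoc2 only, 12.2% with no cycle limits and 5.11% among cells with at least 10000 UMIs, and 3.44 to 4.76% with a library left out.

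Directions of named genes reversed 16 times among 4095 values. Against other DC cells Cd74 was at 1.42 without DC 2 (leave-one-out range -3.51 to 1.42), and with no cycle limits Chgb was at 0.23, H2afz at 0.69, Plk1 at 1.47 and Prc1 at 1.24. Against cycling cells Cd74 was at 1.07 without DC 2 (-2.73 to 1.07) and Myc at -0.32 with Lgr5 and Smoc2 only. Between tissues Rgmb was at -0.11 with those 2 genes only. In the difference between tissues Cd74 was at 0.52 without DC 2 (-4.41 to 0.52), Chgb at 2.47 without Si8 2 (-8.32 to 2.47), and with Lgr5 and Smoc2 only Cdkn1a was at 0.88, Gbp2 at 0.27, Saa1 at 0.87, Spink1 at 0.18, Tff3 at 0.32 and Tmed6 at -0.17. Values of Lgr5 rest on 21 and 41 UMIs over all stem-like cells of DC 1 and DC 2, which limits their precision.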
